A study of Mus musculus with 42 samples.

Results

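The miRNAs of small extracellular vesicles (EVs) released by cortical neurons after brain-derived neurotrophic factor (BDNF) were set against those of vesicles from control cultures. The comparison holds 12 of the 42 samples of the study, 6 BDNF EV libraries and 6 control EV libraries, and takes every miRNA of the small RNA table. The donor cells were primary cortical neurons of NMRI mouse embryos at embryonic day 16. BDNF EVs came from neurons given BDNF at 50 ng/ml for 20 min, and control EVs from neurons given vehicle alone. All cultures had been plated in medium with horse serum, moved to serum-free B27 medium within hours, and washed after treatment, and the vesicles were taken from the medium 16 h later. Lysates of donor cultures, 6 BDNF lysates and 6 control lysates, serve below only to set a vesicle value beside that of the cells. Each group carries the replicate numbers 1, 2, 3 (batch x) and 7, 8, 9 (batch z), and the labels do not say what a batch is. Whether replicates were separate cultures is not labelled, so all p-values reflect the spread among these libraries alone, and that spread may be technical.

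BDNF binds the receptor tyrosine kinase TrkB and signals through ERK, PI3K and phospholipase C to the transcription factor CREB, and it promotes dendrite growth and synapse maturation. miRNAs are short RNAs that guide Argonaute proteins to mRNAs, mostly through pairing of the seed near their 5′ end, and lower the output of those mRNAs. Neurons release part of their miRNAs in small vesicles, which other neurons can take up. The series asked whether such vesicles carry an effect of BDNF from cell to cell by way of their miRNAs.

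The sequences of the miRNAs on which the comparison turns are shown first, since several share a seed or a locus. They are RefSeq mature sequences (GRCm38.p6), written 5′ to 3′ with the seed, bases 2 to 8, in capitals. The opening set, miR-690 to miR-212-3p, holds the miRNAs nearest the threshold on the higher side and the other products of the miR-132 locus.
miR-690: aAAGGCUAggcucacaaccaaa
miR-218-5p: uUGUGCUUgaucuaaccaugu
miR-132-5p: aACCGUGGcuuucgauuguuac
miR-132-3p: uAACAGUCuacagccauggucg
miR-212-5p: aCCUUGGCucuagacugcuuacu
miR-212-3p: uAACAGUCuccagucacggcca
The lower side begins with miRNAs whose BDNF and control values separated most clearly, and ends with the 3 tested miRNAs that share the seed CCCUGAG.
miR-485-3p: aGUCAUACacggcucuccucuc
miR-99b-5p: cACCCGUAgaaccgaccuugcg
miR-434-3p: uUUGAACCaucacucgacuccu
miR-129-2-3p: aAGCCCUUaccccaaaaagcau
miR-125a-5p: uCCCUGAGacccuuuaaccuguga
miR-125b-5p: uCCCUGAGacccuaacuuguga
miR-351-5p: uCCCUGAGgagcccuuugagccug

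In GRCm38.p6, miR-690 lies at chr16:28599940-28599961 on the minus strand. miR-132-5p (chr11:75173686-75173707) and miR-132-3p (chr11:75173723-75173744) are the arms of the Mir132 precursor, and miR-212-5p (chr11:75173403-75173425) and miR-212-3p (chr11:75173443-75173464) those of the neighbouring Mir212 precursor, all on the plus strand. miR-132-3p and miR-212-3p share the seed AACAGUC. miR-99b-5p (chr17:17830194-17830215) and miR-125a-5p (chr17:17830817-17830840) lie in 1 cluster on the plus strand. miR-485-3p (chr12:109734946-109734967) and miR-434-3p (chr12:109594565-109594586) belong to the imprinted Dlk1-Dio3 region, whose maternal chromosome gives rise to a large miRNA cluster used in neurons. miR-129-2-3p is at chr2:94241376-94241397 and miR-351-5p at chrX:53053315-53053338, both on the minus strand. miR-218-5p is made from the Mir218-1 precursor (chr5:48223966-48223986) and the Mir218-2 precursor (chr11:35616840-35616860), so its value is a sum over both loci.

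The BDNF EV libraries held 377116 to 2708772 miRNA counts and the control EV libraries 438686 to 3945963, with the batch z libraries the shallower ones. The group means were 1510066 ± 1013164 for BDNF EVs and 1828221 ± 1311249 for control EVs (SD, n = 6 each), and an exact two-sided permutation test within batches gave p = 0.415 (smallest possible 0.005). Of 1899 distinct miRNA entries 749 had no count in any EV library, and 377 passed the filter on low counts. The neuronal markers miR-9-5p, miR-128-3p, miR-7a-5p, miR-218-5p and miR-124-3p were present in all 12 libraries, and the 24 neuron-enriched miRNAs together made up 382400 to 514500 CPM in BDNF EVs and 294000 to 484900 CPM in control EVs. CPM are miRNA counts divided by the library total of the 377 tested miRNAs, TMM-scaled over the 12 EV libraries, in units of 1e-06 of that total. The scaling factors ran from 0.878 in BDNF EV 8 to 1.146 in control EV 1. CPM and their sums therefore differ from plain shares of the counts in part through this scaling. They are relative levels and carry no information on how many vesicles or how much RNA a culture released. In such bulk samples fewer cells of a type and less RNA per cell cannot be told apart.

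Libraries did not always lie nearest to one of their own group. Over the 377 tested miRNAs the median absolute log2 difference between control EV 2 and the BDNF EV libraries of its batch was 0.17 to 0.19, while against control EV 1 and control EV 3 it was 0.28 to 0.30. The BDNF EV libraries of batch x differed from each other by 0.13 to 0.16. In batch z the libraries were further apart, and control EV 7 lay nearest to BDNF EV 7 (0.22, against 0.36 to 0.38 from the other control EVs). BDNF EV 7 and BDNF EV 9 in turn lay nearest to control EV 7, and control EV 8 lay nearest to BDNF EV 9. The libraries of batch z thus did not sort by treatment. Values without control EV 2 are given beside the miRNAs that pass without it. That library was singled out by its likeness to the BDNF EVs in these same miRNAs, so leaving it out tends to widen the differences. Values without it are therefore a description of how far the result depends on 1 library, and add no support for a difference.

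No miRNA differed between BDNF EVs and control EVs at an adjusted p under 0.05. By edgeR's quasi-likelihood test with batch as a covariate and Benjamini-Hochberg adjustment (called edgeR adjusted p below), 0 of 377 miRNAs passed (0%). At an unadjusted p under 0.05 there were 43 (11.4%), of which 19 had higher values in BDNF EVs (5.04% of those tested) and 24 lower values (6.37%). The smallest edgeR adjusted p was 0.0844, shared by 7 miRNAs, namely miR-690, miR-218-5p and miR-132-5p with higher values after BDNF and miR-129-1-3p, miR-129-2-3p, miR-351-5p and miR-485-3p with lower values. DESeq2 on the same counts called 12 miRNAs, 5 higher and 7 lower, and limma voom with sample weights called 4.

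Differences were small throughout. The median log2 fold change of BDNF EV over control EV was −0.02 and its median size 0.16. Only 2 of the 377 exceeded a 2-fold difference, miR-690 and miR-1a-3p. For miR-1a-3p, a muscle miRNA named after its values were seen, control EV 7 held 678 CPM, against 40.4 to 90.7 CPM in the 6 BDNF EVs and 49.2 to 85.2 CPM in the other control EVs (log2 −1.06, unadjusted p = 0.103 in edgeR's fit). The 95% interval reached 0.37 (log2, median over miRNAs) to each side, and in 347 of 377 miRNAs the whole interval lay within a 2-fold difference either way. At this depth and spread, differences within the reach of the interval were thus not distinguishable from 0, and no larger one passed after adjustment.

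**Figure D1:**
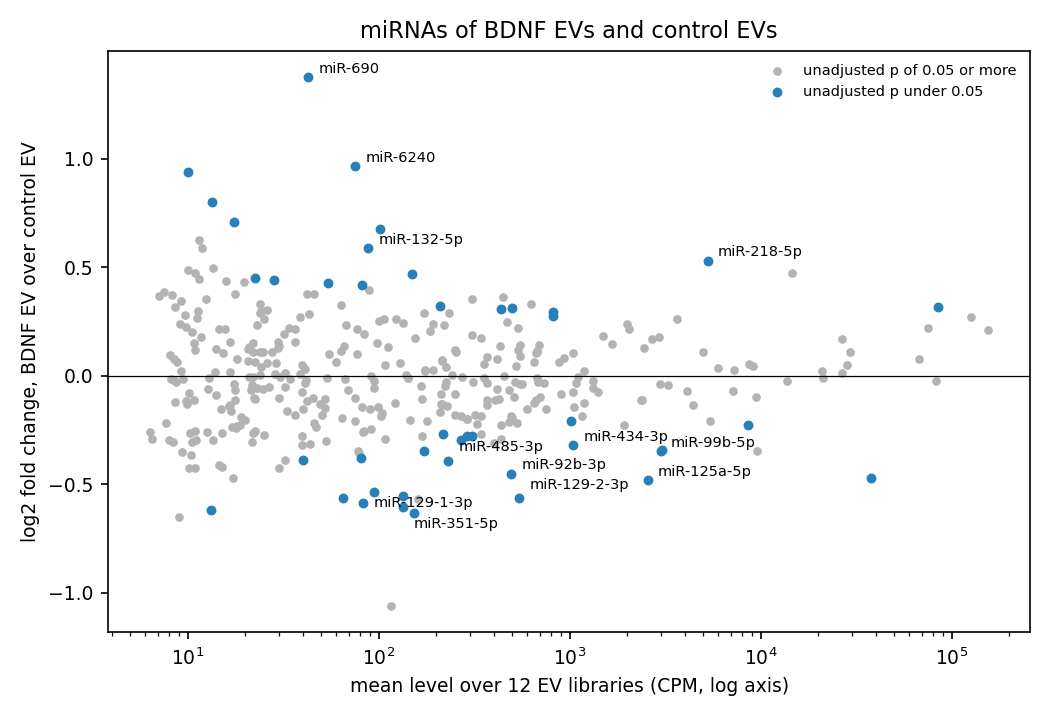
Each point is 1 of the 377 tested miRNAs, with its mean level over the 12 EV libraries in CPM (log axis) against the log2 fold change of BDNF EV over control EV; blue marks an unadjusted p under 0.05 and names mark the 12 smallest p-values. The points gather around a median of −0.02, and miR-690 at 1.38 lies highest.

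miR-690 had the highest fold change of all. BDNF EVs held 27.1 CPM of it at the lowest, 55.9 at the median and 106 at the highest, against 11.9, 18.5 and 39.4 CPM in control EVs. BDNF EV 9 was the low one of its group and lay under control EV 2 and control EV 3, but within each batch all BDNF EVs stood above all control EVs. miR-690 was the only miRNA on the higher side of which that was true (0.265% of those tested). Of the 400 arrangements of the labels within batches 1 gives that order, so about this share has it by chance. The fold was 2.60 (95% interval 1.63 to 4.13), a log2 value of 1.38 ± 0.32 (SE, edgeR adjusted p = 0.0844). Batch x alone gave a log2 value of 0.81 and batch z alone 2.41, and the test of that difference gave an unadjusted p of 0.0121 and an adjusted p of 0.968 in edgeR's fit. The batch z value rests on few reads, 87, 35 and 16 counts in BDNF EV 7, 8 and 9 and 10, 6 and 19 counts in control EV 7, 8 and 9. Without control EV 2 the log2 value was 1.56 (edgeR adjusted p = 0.0136).

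miR-218-5p is enriched in neurons and comes from introns of the axon guidance genes Slit2 and Slit3. Its level in BDNF EVs ran from 5150 CPM over a median of 6172 to 7493, and in control EVs from 3347 over 4142 to 5610. All BDNF EVs of batch x stood above the control EVs of that batch, while in batch z BDNF EV 7 (5150 CPM) was under control EV 7 (5610 CPM). BDNF EVs exceeded control EVs 1.45-fold (95% interval 1.19 to 1.76), or by 0.53 ± 0.14 in log2 (SE), with an edgeR adjusted p = 0.0844. Batch x gave 0.58 and batch z 0.55. Without control EV 2 it was 0.59 (edgeR adjusted p = 0.0215).

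The miR-132 and miR-212 arms come from 1 primary transcript that CREB induces after BDNF or activity, and miR-132-3p promotes dendrite growth in neurons. All 4 arms had positive values in the EVs, with a median of 0.30 (log2), and the 5p and 3p arms of miR-132 had an unadjusted p under 0.05. For miR-132-5p, BDNF EVs held 96.7, 102 and 124 CPM (lowest, median, highest) and control EVs 55.4, 67.9 and 107 CPM. Control EV 8 at 107 CPM was the one control library inside the BDNF range, the next highest standing at 74.2 CPM. Set against each other, the groups differed by 0.59 ± 0.16 in log2 (SE), at an edgeR adjusted p of 0.0844; batch x gave 0.57 and batch z 0.65.

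For miR-132-3p the values were 487, 539 and 622 CPM in BDNF EVs (lowest, median, highest) and 289, 462 and 555 CPM in control EVs. The groups overlapped. The difference was 0.31 ± 0.12 in log2 (SE), at an edgeR adjusted p of 0.325. miR-212-5p reached 0.14 ± 0.16 and miR-212-3p 0.29 ± 0.28 (log2, SE), and miR-212-3p had 1 count in BDNF EV 8 and 14 to 90 counts in the other BDNF EVs, against 7 to 117 counts in control EVs. Neither was distinguishable from 0, and miR-212-3p had −0.04 in batch x alone and 0.98 in batch z alone (edgeR adjusted p = 0.888 in batch z).

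Higher values were also found for less studied miRNAs. miR-6240 stood at 28.8 to 171 CPM in BDNF EVs (median 103) and 34.6 to 62.6 CPM in control EVs (median 53.6). BDNF EV 9 was below every control library, and the other 5 BDNF EVs were above all of them. The difference was 0.97 ± 0.28 in log2 (SE), at an edgeR adjusted p of 0.116. Within batch x miR-6240 was the 1 miRNA of 441 that passed (0.227%), with a log2 value of 0.94 (edgeR adjusted p = 0.0125), and 58 had an unadjusted p under 0.05 (13.2%). Within batch z 0 of 332 passed (0%), and 17 had such a p (5.12%). miR-3068-3p differed by 0.68 ± 0.21 (edgeR adjusted p = 0.116).

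On the lower side, miR-485-3p and miR-99b-5p were the only miRNAs whose 6 BDNF EV values all lay below the 6 control EV values (0.531% of those tested, and 0% for the opposite order). miR-485-3p, a Dlk1-Dio3 miRNA, held 182, 201 and 212 CPM in BDNF EVs (lowest, median, highest) and 231, 255 and 313 CPM in control EVs. The fold of BDNF over control was 0.761 (95% interval 0.654 to 0.887), or −0.39 ± 0.10 in log2 (SE), at an edgeR adjusted p of 0.0844. Batch x gave −0.31 and batch z −0.43, and without control EV 2 the value was −0.46 (edgeR adjusted p = 0.0215). Its partner strand miR-485-5p had −0.28 (unadjusted p = 0.0366 in edgeR's fit).

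miR-99b-5p, of the miR-99 and miR-100 family that targets mTOR in several cell types, held 2382, 2641 and 2730 CPM in BDNF EVs and 2831, 3183 and 4294 CPM in control EVs. The gap between the groups was narrow, and control EV 2 was the control library nearest to it. It came to −0.35 ± 0.10 in log2 (SE, edgeR adjusted p = 0.116), and to −0.43 without control EV 2 (edgeR adjusted p = 0.0220). Its seed, ACCCGUA, is shared with miR-99a-5p (0.08 ± 0.13) and miR-100-5p (−0.21 ± 0.10), which did not pass either.

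**Figure D2:**
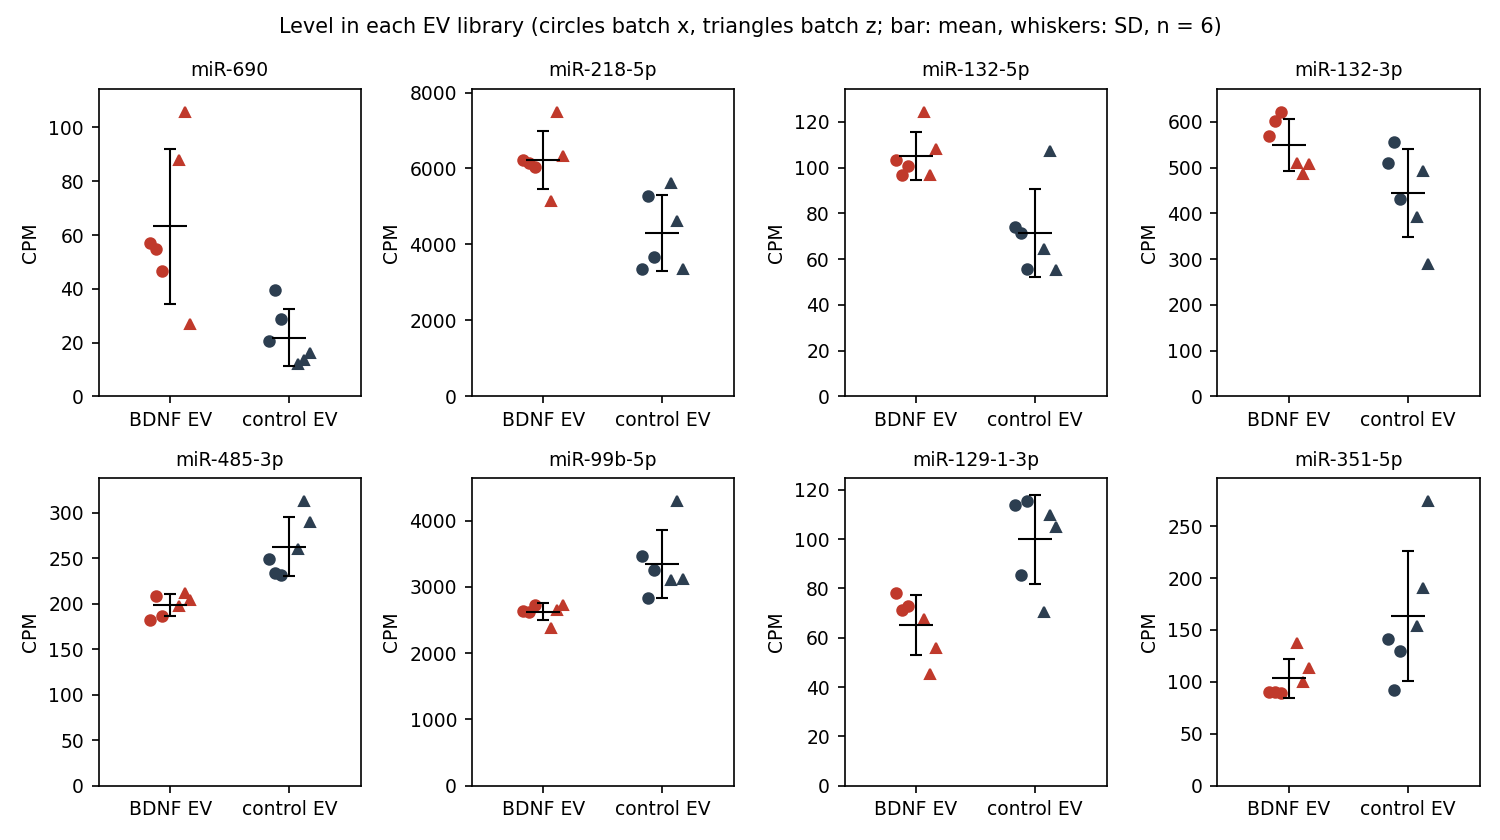
Level in CPM of 8 miRNAs in each EV library, BDNF EVs left and control EVs right; circles are batch x, triangles batch z, the bar is the mean and the whiskers the SD (n = 6 each). The groups are apart for miR-485-3p (at most 212 CPM in BDNF EVs, at least 231 in control EVs) and for miR-99b-5p, and overlap in the other 6.

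Within both batches, 5 miRNAs lay below all controls, namely miR-129-1-3p, miR-351-5p, miR-434-3p, miR-485-3p and miR-99b-5p (1.33% of those tested). miR-129-1-3p ran from 45.4 CPM over a median of 69.6 to 78.0 in BDNF EVs and from 70.4 over 107 to 115 in control EVs, so that the groups overlapped only through control EV 7, the low control (log2 −0.59 ± 0.15, edgeR adjusted p = 0.0844). miR-129-2-3p, from the other miR-129 precursor, held 266, 458 and 528 CPM in BDNF EVs and 384, 592 and 919 CPM in control EVs (log2 −0.56 ± 0.14, edgeR adjusted p = 0.0844). The 5p arm, miR-129-5p, which is known to repress the potassium channel Kv1.1, differed by −0.04 ± 0.14 (edgeR adjusted p = 0.943). The 3p arms of both precursors are alike in sequence, and the sources used here do not say how reads that match both were counted, so their values may not be independent. Without control EV 2 they reached −0.72 and −0.69 (edgeR adjusted p = 0.0136 for each).

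The 3 tested miRNAs with the seed CCCUGAG, the seed of the miR-125 family, were all on the lower side with an unadjusted p under 0.05. Over all 377 tested miRNAs, 24 were lower with such a p (6.37%). Among the seeds shared by several tested miRNAs CCCUGAG had the lowest median (−0.48), so it is shown as an extreme of these data. The family was not tested as a set. miR-125b-5p promotes neuronal differentiation and affects the shape of dendritic spines. It held 16644, 35963 and 42007 CPM in BDNF EVs (lowest, median, highest) and 28949, 41992 and 57753 CPM in control EVs, which is −0.47 ± 0.20 in log2 (SE, edgeR adjusted p = 0.375). The groups overlapped widely, and the value was −0.12 in batch x alone and −0.76 in batch z alone. miR-125a-5p, whose known target is the postsynaptic scaffold PSD-95, held 1515, 2139 and 2771 CPM in BDNF EVs and 2155, 3066 and 3723 CPM in control EVs (−0.48 ± 0.15, edgeR adjusted p = 0.116). The value was −0.22 for batch x and −0.69 for batch z. In batch x control EV 2 (2268 CPM) was below the BDNF EVs of that batch, whereas in batch z the BDNF EVs were all below the control EVs. Without control EV 2 the value was −0.63 (edgeR adjusted p = 0.0167).

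miR-351-5p, the rodent member of that seed family, held 88.9, 95.1 and 138 CPM in BDNF EVs and 92.2, 147 and 274 CPM in control EVs (−0.60 ± 0.16, edgeR adjusted p = 0.0844). Control EV 2 at 92.2 CPM was again the control library closest to the BDNF EVs, and without it the value was −0.76 (edgeR adjusted p = 0.0136). The seed AUUGCAC, of the miR-92 family that promotes proliferation of progenitors, was also among those with the lowest medians. It had 3 of 4 tested members on the lower side. Those with an unadjusted p under 0.05 were miR-92b-3p (−0.45 ± 0.14, edgeR adjusted p = 0.116) and miR-92a-3p (−0.34 ± 0.11, edgeR adjusted p = 0.146). miR-434-3p, antisense to the imprinted Rtl1 gene, held 762 to 1085 CPM in BDNF EVs and 858 to 1511 CPM in control EVs (−0.32 ± 0.09, edgeR adjusted p = 0.116). Without control EV 2, miR-92b-3p was at −0.57, miR-92a-3p at −0.46 and miR-434-3p at −0.40 (edgeR adjusted p = 0.0174, 0.0215 and 0.0406).

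Grouping the tested miRNAs by locus gave the same picture of small values, with 324 of the 377 matched to RefSeq. At chr17:17830194-17830876 the 6 tested arms of miR-99b, let-7e and miR-125a were all negative, with a median of −0.16 (log2), and 2 had an unadjusted p under 0.05. The 6 arms of miR-106b, miR-93 and miR-25 at chr5:138165332-138165807 were all negative too, with a median of −0.17 and 1 such p. These loci are examples, as others were all positive, such as miR-132 with miR-212 (4 of 4, median 0.30). The largest locus, in the Dlk1-Dio3 region, had 19 positive and 22 negative. Over all 377 miRNAs 171 were positive and 206 negative. The letters GGAG, a motif that the RNA-binding protein hnRNPA2B1 recognises when it loads miRNAs into vesicles of human T cells, stood in 38 of the 324 matched mature sequences (11.7%), against 14.2% of all mature sequences of the RefSeq table. The median log2 fold change was −0.03 with the motif and −0.01 without it.

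The most abundant vesicle miRNAs shifted little. miR-9-5p, a regulator of neurogenesis, made up 16.0% ± 5.34 of the miRNA counts in BDNF EVs and 14.7% ± 3.87 in control EVs (SD, n = 6 each). The fit, with TMM scaling and the batch term, gave 0.21 ± 0.11 in log2 (SE, edgeR adjusted p = 0.434), which is not the ratio of these plain shares. The spread was mainly one between batches, 19.6% to 21.6% (batch x) against 10.0% to 12.2% (batch z) for BDNF EVs, and 16.1% to 19.5% against 10.7% to 11.8% for control EVs. miR-128-3p, which damps neuronal excitability, took 13.1% ± 2.17 of the counts in BDNF EVs and 11.7% ± 1.87 in control EVs. The fit, on scaled counts again, gave 0.27 ± 0.14 (edgeR adjusted p = 0.434). miR-7a-5p, the miRNA bound by the circular RNA Cdr1as, held 68170 to 130620 CPM in BDNF EVs and 57950 to 101723 CPM in control EVs, a log2 difference of 0.32 ± 0.13 (edgeR adjusted p = 0.368).

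Among the 9 tested let-7 members, which BDNF is known to lower in neurons through the RNA-binding protein Lin28, 5 were positive and 4 negative, none with an unadjusted p under 0.05, and the median was 0.01. let-7c-5p differed by −0.03 ± 0.09, let-7f-5p by 0.22 ± 0.12, let-7g-5p by 0.05 ± 0.09 and let-7i-5p by 0.17 ± 0.11 (log2, SE). Of the tested miR-29 and miR-30 members 6 of 8 were positive, around a median of 0.03, and only miR-30c-5p had such a p (−0.23 ± 0.10, edgeR adjusted p = 0.375). Of the 9 tested members of the miR-17-92 clusters 2 were positive and 7 negative (median −0.10), miR-92a-3p being the one with an unadjusted p under 0.05.

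Neuron-enriched miRNAs were split. Of 24 tested, 15 were positive and 9 negative, 5 and 2 of them with an unadjusted p under 0.05, and their median was 0.09. Over all 377 tested miRNAs, 19 (5.04%) were higher and 24 (6.37%) lower with such a p. The lists share members, as miR-218-5p, miR-132-5p, miR-132-3p and miR-138-5p are also in the activity and BDNF regulated list, so their counts are not separate. Besides miR-218-5p, miR-132-5p, miR-132-3p and miR-7a-5p, the spine regulator miR-138-5p was on the higher side with 0.47 (unadjusted p = 0.0198 in edgeR's fit). miR-124-3p, the most specific neuronal miRNA, differed by −0.07 ± 0.12 (SE, edgeR adjusted p = 0.836) and was at 2195 to 5789 CPM in BDNF EVs and 2617 to 5786 CPM in control EVs. The activity and BDNF regulated list, which was assembled with earlier results of these libraries known and holds miR-690 and miR-218-5p for that reason, had 10 of 15 positive, 5 with an unadjusted p under 0.05 higher and 3 lower, and a median of 0.21. In the Dlk1-Dio3 list 20 of 46 were positive, 1 with such a p higher (miR-300-3p, 0.29 ± 0.11) and 6 lower, around a median of −0.01. Of 9 miRNAs reported to target the Bdnf transcript 3 were positive and 6 negative, none with an unadjusted p under 0.05 (miR-191-5p −0.23 ± 0.12, miR-26a-5p 0.11 ± 0.09).

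Among the lists for other cell types, that of liver and serum reached the highest sums. miR-122-5p, the main liver miRNA, held 2128 to 16094 CPM in BDNF EVs and 2990 to 11948 CPM in control EVs, against medians of 35.0 CPM in BDNF lysates and 46.4 CPM in control lysates. The vesicle level went with the batch, all batch z libraries standing at 8578 CPM or more and all batch x libraries at 3588 CPM or less. BDNF and control EVs differed by −0.07 ± 0.15 (log2, SE; edgeR adjusted p = 0.907). The effect was −0.39 for batch x and 0.32 for batch z, a difference with an unadjusted p of 0.0184 and an adjusted p of 0.968 in edgeR's fit. The summed liver and serum list ran from 8946 to 68370 CPM in BDNF EVs and from 9107 to 38950 CPM in control EVs, with 3 of 7 members positive, 4 negative and none at an unadjusted p under 0.05. miR-148a-3p, also abundant in liver, differed by 0.47 ± 0.27 (edgeR adjusted p = 0.497). It had more counts than miR-122-5p in every EV library, for example 15427 against 5322 in BDNF EV 8. The donor cells held it too, at a mean of 29454 counts in BDNF lysates and 39758 in control lysates, against 276 and 299 for miR-122-5p. The summed list is therefore no measure of liver or serum RNA alone. The part of the liver and serum miRNAs in the values above was not tested.

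The blood and immune list summed to 1406 to 2372 CPM in BDNF EVs and 1583 to 2066 CPM in control EVs, with 4 of 6 tested members positive. In batch x its largest member was miR-16-5p, with 3093 to 6001 counts in each library, against 640 to 1531 for miR-486a-5p. These list sums follow their largest members and do not measure a cell type. The other 5 of the 11 listed were below the filter, among them the lymphoid and myeloid marker miR-142a-3p, with no count in any EV library. Another was the myeloid marker miR-223-3p, with 1 count in all BDNF EVs and 4 in all control EVs. Other immune members were present. miR-142a-5p, the other arm of miR-142a, had 11 to 26 counts in each BDNF EV library and 4 to 35 in each control EV library. miR-146a-5p had 63 to 262 counts in each BDNF EV library and 77 to 251 in each control EV library. The erythrocyte member of the list, miR-451a, held 5.72 to 39.3 CPM in BDNF EVs and 4.09 to 27.4 CPM in control EVs (0.50 ± 0.32, edgeR adjusted p = 0.523). miR-486a-5p differed by −0.19 ± 0.12. The glial list summed to 1721 to 2537 CPM in BDNF EVs and 1316 to 2617 CPM in control EVs. Its largest member in every EV library was miR-21a-5p, with 643 to 5784 counts. Of the 6 tested glial members 4 were positive and 2 negative. The negative ones, miR-23a-3p and the oligodendrocyte miR-219a-2-3p (−0.55 ± 0.18, edgeR adjusted p = 0.146), both had an unadjusted p under 0.05. Without control EV 2 miR-219a-2-3p was at −0.71 (edgeR adjusted p = 0.0233). Vascular, mesenchymal and muscle miRNAs summed to 6366 to 9181 CPM in BDNF EVs and 6652 to 11090 CPM in control EVs. The largest of them in every EV library was miR-100-5p, with 1680 to 19881 counts. It averaged 40131 counts in BDNF lysates and 40781 in control lysates. This list was negative in 10 of 12 with a median of −0.16. Choroid plexus and ependyma miRNAs held 189 to 345 CPM in BDNF EVs and 210 to 398 CPM in control EVs. They were negative in 4 of 4 with a median of −0.13 (miR-204-5p −0.18 ± 0.11). Neither list had a member with an unadjusted p under 0.05. In the rodent repeat cluster of miR-297, miR-466, miR-467 and miR-669, 10 of 69 members were tested and 8 were negative (median −0.12; batch x −0.39, batch z 0.17; miR-669c-5p −0.36 ± 0.23).

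The batches gave partly the same values. For the 328 miRNAs tested in both, the log2 fold changes had the same sign in 57.0% of miRNAs, and Pearson's r across miRNAs was 0.29, a description over features of the same libraries. For 0 of 377 miRNAs (0%) did the effect differ between the batches by edgeR's interaction test, with 13 at an unadjusted p under 0.05 (3.45%). The median size of the difference between the effects of the batches was 0.24 (log2).

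**Figure D3:**
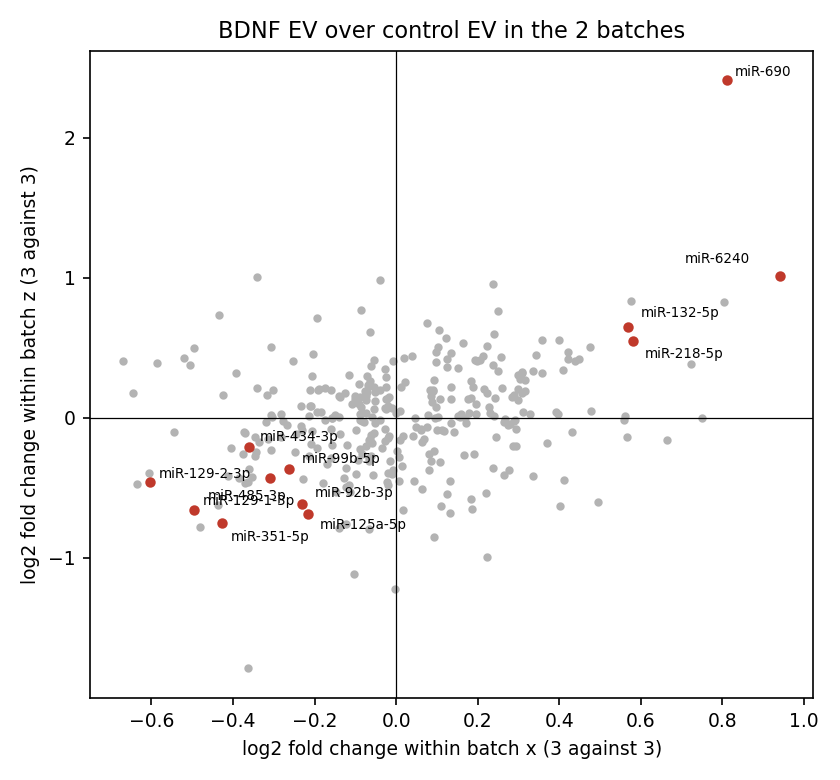
Log2 fold change of BDNF EV over control EV within batch x (horizontal) and within batch z (vertical), 3 libraries against 3 in each; grey points are the 328 miRNAs tested in both and red points the 12 with the smallest p over both batches. Since these 12 were chosen from the same libraries, their place in the plot is a description only; miR-690 is farther from 0 in batch z (2.41) than in batch x (0.81).

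The number of calls depended on which libraries were in the fit. Leaving out each library in turn gave 14 calls without control EV 2 (2 higher, 12 lower), 4 without control EV 7, 2 without BDNF EV 9 and 0 without any of the other 9. The 14 were miR-690 and miR-218-5p on the higher side and miR-125a-5p, miR-129-1-3p, miR-129-2-3p, miR-219a-2-3p, miR-296-5p, miR-3057-5p, miR-351-5p, miR-434-3p, miR-485-3p, miR-92a-3p, miR-92b-3p and miR-99b-5p on the lower. With the lysates in the same fit, so that all 24 libraries shared an estimate of spread, 17 passed (7 higher, 10 lower). Over the 25 alternative settings miR-218-5p and miR-129-2-3p were called most often, in 6 settings each, followed by miR-690, miR-6240 and miR-129-1-3p in 5 each, and all 5 kept their sign in each of these settings. The adjusted p ran from 5.46e-07 to 0.459 for miR-690, from 0.00269 to 0.773 for miR-218-5p, from 0.0107 to 0.872 for miR-129-2-3p, from 0.0132 to 0.773 for miR-129-1-3p, from 0.0128 to 0.773 for miR-351-5p and from 0.0220 to 0.773 for miR-99b-5p over the alternatives, the tool in each being the one of that setting.

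**Figure D4:**
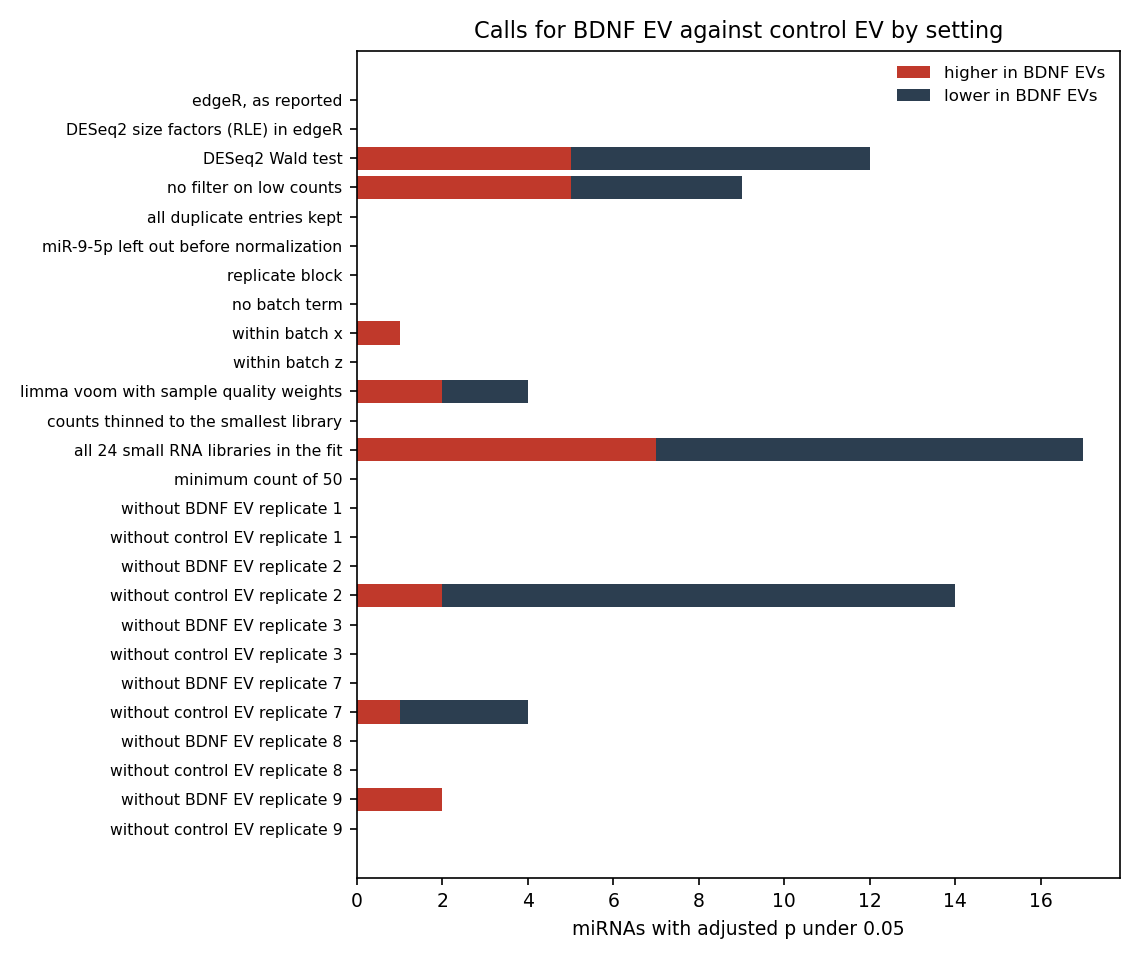
Number of miRNAs with an adjusted p under 0.05 for BDNF EV against control EV, in the fit as reported (0) and in each alternative setting, with red for higher and dark for lower in BDNF EVs. Calls reach 17 with all 24 libraries in the fit, 14 without control EV 2 and 12 with DESeq2.

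In the donor cells 224 of 519 miRNAs passed (43.2%), 115 higher (22.2%) and 109 lower (21%) in BDNF lysates. Across the 372 miRNAs tested in both fractions the EV and lysate effects had the same sign in 54.6%, with Pearson's r of 0.10 as a description. To ask where the 2 effects differ, the EV effect minus the lysate effect was tested over all 24 libraries, and 64 of 521 miRNAs passed (12.3%), 37 with a higher (7.1%) and 27 with a lower effect (5.18%) in EVs. Of the 37, 29 fell in the lysates after BDNF, 6 were tested but not called there and 2 (miR-1949 and miR-451a) were below the filter there, and of the 27, 25 rose in the lysates and 2 were tested but not called there. With miR-9-5p left out before scaling the split turned to 23 and 32 of 55, with a median over all miRNAs of −0.10 in place of −0.01 (log2). Leaving out 1 library gave 30 to 79 calls, the lowest without BDNF lysate 3, and DESeq2 gave 99.

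miR-132-5p shows the contrast. In lysates it stood at 209, 290 and 388 CPM after BDNF (lowest, median, highest) and 92.7, 111 and 140 CPM in controls, a rise of 1.36 ± 0.06 (log2, SE, edgeR adjusted p = 1.97e-10), against the 0.59 of the EVs given above. The difference between the effects was −0.71 ± 0.16 (edgeR adjusted p = 0.00619). For miR-132-3p the lysate rise was 1.29 ± 0.12 and the difference −0.92 ± 0.18 (edgeR adjusted p = 0.00249), and for miR-212-5p they were 0.79 ± 0.08 and −0.57 ± 0.18 (edgeR adjusted p = 0.0321). miR-212-3p differed by −0.98 ± 0.36, which did not pass (edgeR adjusted p = 0.0744).

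miR-690 and miR-218-5p were the reverse case, with little difference in the cells. miR-690 stood at 6.03 to 51.9 CPM in BDNF lysates and 6.43 to 59.8 CPM in control lysates, a log2 value of −0.08 ± 0.20, and its EV effect was higher by 1.42 ± 0.42 (edgeR adjusted p = 0.0327). For miR-218-5p the lysate value was 0.08 ± 0.05 and the EV effect was higher by 0.49 ± 0.15 (edgeR adjusted p = 0.0327). This test rests on all 24 libraries, and with all 24 in the fit both also passed for BDNF EV against control EV (edgeR adjusted p = 0.0206 for miR-690 and 0.00377 for miR-218-5p), which neither did in the fit of the 12 EV libraries.

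Some miRNAs had values of opposite sign in the fractions, though none of their EV values passed in the fit of the EV libraries. miR-129-2-3p rose in lysates by 0.30 ± 0.08 (edgeR adjusted p = 0.00612), and the EV effect differed from that by −0.81 ± 0.17 (edgeR adjusted p = 0.00381). miR-124-3p rose in lysates by 0.53 ± 0.10 (edgeR adjusted p = 0.000785), and the EV effect differed from that by −0.55 ± 0.15 (edgeR adjusted p = 0.0198). Its EV value of −0.07 was not distinguishable from 0 and turned to 0.069 within batch x. miR-125a-5p, at 0.16 ± 0.06 in lysates (edgeR adjusted p = 0.0468), had a difference of −0.59 ± 0.16 (edgeR adjusted p = 0.0171). In the other direction miR-7a-5p, miR-128-3p and let-7i-5p fell by 0.32, 0.29 and 0.46 in lysates, and their EV effects were higher by 0.69 ± 0.17, 0.61 ± 0.17 and 0.68 ± 0.15. The EV values themselves were 0.32, 0.27 and 0.17, and that of let-7i-5p was −0.0075 within batch x.

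miR-99b-5p was lower in both fractions. BDNF lysates held 2450 to 2970 CPM and control lysates 2963 to 4404 CPM, a fall of 0.43 ± 0.08 (log2, SE, edgeR adjusted p = 0.00115), and the EV effect differed from it by 0.13 ± 0.14 (edgeR adjusted p = 0.581). miR-351-5p fell in lysates too, with a log2 value of −0.29 ± 0.06 (edgeR adjusted p = 0.00188) and a difference of −0.26 ± 0.17 (95% interval −0.61 to 0.08).

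**Figure D5:**
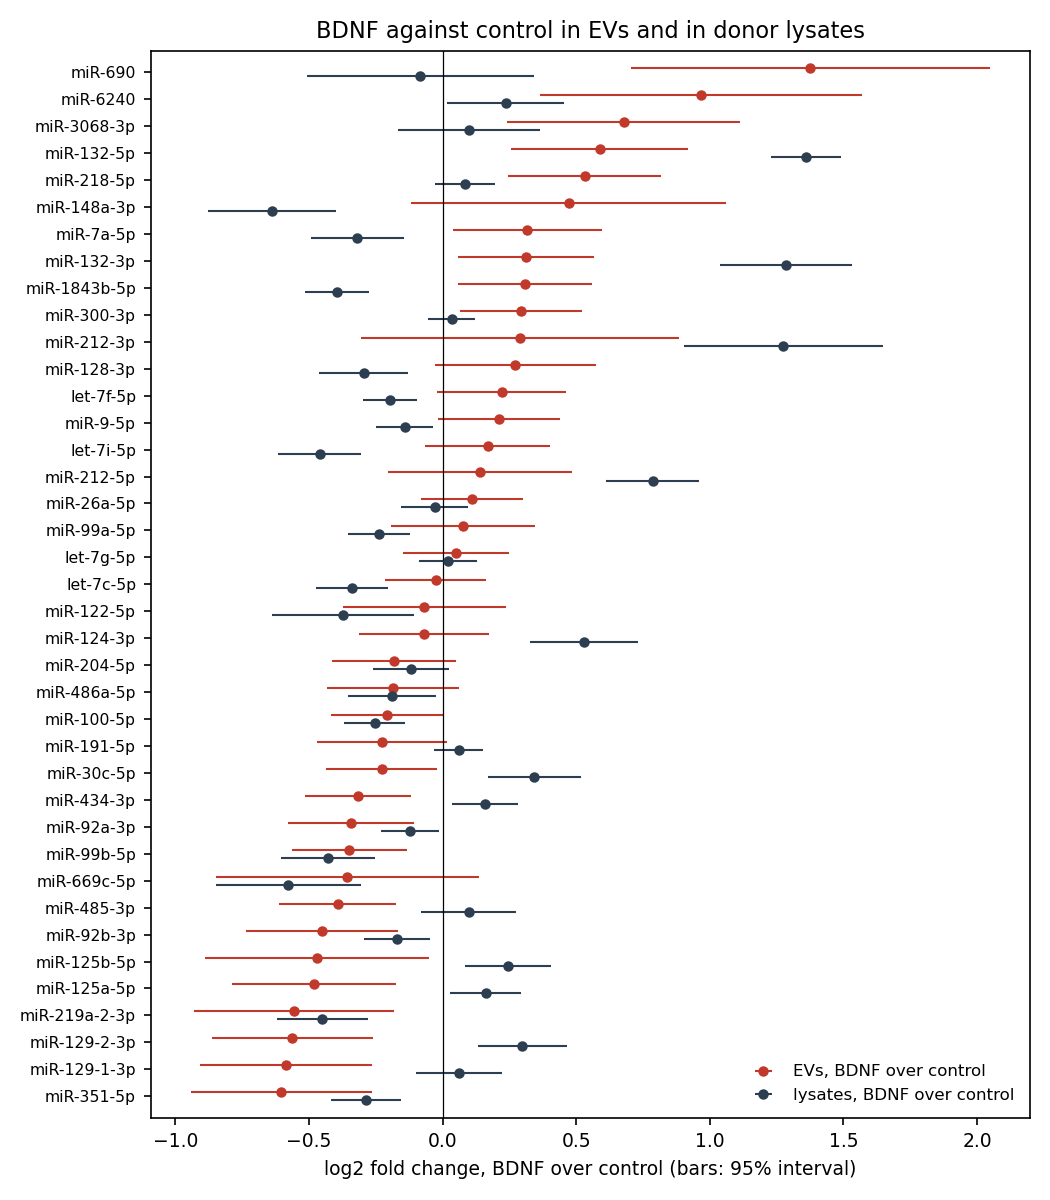
Log2 fold change of BDNF over control with its 95% interval for the named miRNAs tested in both fractions, EVs in red and lysates in dark, ordered by the EV value. EV intervals are wider, and miR-132-5p is at 0.59 in EVs and 1.36 in lysates, while miR-690 is at 1.38 in EVs and −0.08 in lysates.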

How the data were processed

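Small RNA of the 12 EV libraries and 12 lysate libraries was compared. The authors deposited raw counts per mature miRNA, with no scaling. By the labels' protocols, libraries were made with the NEBNext small RNA kit from 150 ng of RNA and run on a HiSeq2000. The submitters' processing notes name cutadapt 1.8.1, CASAVA 1.8.2 and 1.8, DESeq2 and the mm10 build; aligner, counter and miRNA annotation are not named in the sources used here. Per the file headers, no column lacked a sample. Of 1915 entries 542 were at 0 in every library, and 16 duplicates in 13 sets with identical counts were counted once. No row without a miRNA name was used.

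Counts were tested with edgeR 4.0.16 (R 4.3.3; quasi-likelihood, robust, TMM, minimum count of 10, batch as covariate, adjusted p under 0.05). BDNF against control was fitted on the EV libraries alone and on the lysates alone, the difference of effects on all 24. CPM were computed per fraction. SE and 95% intervals come from the fits; they cover the spread between libraries. Alternatives used DESeq2 1.42.0, limma 3.58.1 and other filters, scalings and sets of libraries. The edgeR steps were tested on simulated data.

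Named miRNAs were the 8 smallest unadjusted p in each direction among those at a mean level of 20 CPM or more. Without that floor, they were also the 10 most abundant, 9 fixed names, the member with the smallest p in each list, and those whose groups did not overlap. Others (miR-1a-3p, miR-138-5p, miR-485-5p, miR-129-5p, miR-1949, miR-23a-3p, miR-296-5p, miR-3057-5p) were picked once their values were known. The comparison, lists and fixed names were chosen with earlier results of these data known.

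Whether equal replicate numbers pair BDNF and control EV libraries was checked through the correlation of their deviations from the group means. It was 0.28 to 0.72, and −0.12 to 0.10 with the batch removed, so the numbers share little beyond the batch that the fit already holds.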

Additional observations from a re-analysis of the deposited data

Results flagged for a closer look

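In 4 of 82 series of 6 libraries (40 named miRNAs and the library totals in each group), 1 library lay beyond Dixon's 95% limit; chance gives about 1 in 20. miR-99b-5p was at 2382 CPM in BDNF EV 7 and 2613 to 2730 CPM in the other BDNF EVs. let-7i-5p was at 35840 CPM in BDNF EV 8 and 24891 to 28302 CPM in the others, and miR-212-3p at 3.02 CPM in BDNF EV 8 and 23.7 to 34.4 CPM in the others. miR-132-5p was at 107 CPM in control EV 8 and 55.4 to 74.2 CPM in the other control EVs.

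For 21 of the 40 named miRNAs the effect of BDNF differed between EVs and lysates by edgeR's test of the difference (adjusted p under 0.05). The EV effect minus the lysate effect, in log2, was 1.42 for miR-690, 0.49 for miR-218-5p, 0.75 for miR-1843b-5p, 0.69 for miR-7a-5p, 0.40 for miR-9-5p, 0.46 for let-7f-5p, 0.61 for miR-128-3p, 1.16 for miR-148a-3p, 0.68 for let-7i-5p and 0.37 for let-7c-5p. It was −0.81 for miR-129-2-3p, −0.59 for miR-129-1-3p, −0.44 for miR-485-3p, −0.71 for miR-132-5p, −0.43 for miR-434-3p, −0.59 for miR-125a-5p, −0.92 for miR-132-3p, −0.52 for miR-30c-5p, −0.57 for miR-212-5p and −0.55 for miR-124-3p. The 2.51 of miR-451a rests on 1 to 4 counts in each BDNF lysate and 3 to 18 in each control lysate, so its size depends on the fit's handling of low counts.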

How the results depend on the processing

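For BDNF EV against control EV the count of calls was 0 as reported, 12 by DESeq2, 9 without a filter on low counts, 1 within batch x, 4 by limma voom and 17 with all 24 libraries in the fit; leaving out 1 library gave 0 to 14. It was also 0 with other size factors, with duplicates kept, without miR-9-5p, without the batch term, within batch z, with thinned counts and with a minimum count of 50. With the replicate block in place of the batch term it was 0, with 40 miRNAs at an unadjusted p under 0.05, and the block left the EV-minus-lysate count at 64. The test between batches gave 0 calls in each setting run. The EV-minus-lysate count was 99 by DESeq2 and 30 to 79 with 1 library left out. The lysate count was 122 without the batch term, 112 within batch x and 133 within batch z.

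Of the named miRNAs, 8 changed sign in at least 1 setting. Within batch x let-7i-5p was −0.0075, miR-212-3p −0.040, let-7g-5p −0.039 and miR-124-3p 0.069. Within batch z miR-212-5p was −0.041, miR-122-5p 0.32 and let-7c-5p 0.15, and miR-122-5p was 0.13 without the batch term. let-7c-5p was 0.0052 with all 24 libraries and 0.0085 with a minimum count of 50. With 1 library left out miR-124-3p ran from −0.13 to 0.025, let-7g-5p from −0.019 to 0.10, miR-122-5p from −0.21 to 0.038, let-7c-5p from −0.077 to 0.022 and miR-99a-5p from −0.0089 to 0.14. The other named miRNAs kept their sign in each setting run; the cause of these changes was not tested. Depth limits miRNAs below about 20 CPM most in batch z, whose smallest library holds 377116 counts.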
